A study of Mus musculus with 2 samples.

Results

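The genes described here carry glucose through the kidney cell: the sodium-coupled and facilitative sugar transporters, the enzymes of glycolysis and of gluconeogenesis, the lactate dehydrogenases and the enzymes of fructose and sorbitol breakdown. The 35 genes were listed by name, by a rule that uses no measured value, from the 31829 gene names on the arrays, although the list was drawn up with earlier results of these data known. For each gene the brightest probe was used, by mean log2 signal. Its log2 ratio, knockout over control throughout, was then read by step of the pathway.

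Whole kidneys of 2-month-old mice were compared, *Cnnm2*fl/fl;*Six2-Cre* (knockout) against *Cnnm2*+/+;*Six2-Cre* (control), by hybridizing the RNA of both genotypes to 2 arrays of 2 colours. *Cnnm2* encodes a membrane protein linked to magnesium handling, and both genotypes carry *Six2-Cre*, a recombinase driven in the progenitors that form the nephron epithelium, so the collecting duct, vessels and immune cells arise from other lineages. The knockout was labelled with Cy5 on array 1 and with Cy3 on array 2, and the control with the other dye. The number of mice behind each RNA is not given, and the exchange of dyes was taken to repeat the labelling and not the mice, so each genotype was counted as 1 replicate, no p-value between genotypes is given, and each SD below is that of the 2 arrays.

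The kidney both filters and makes glucose. The sodium-glucose cotransporters SGLT2 (*Slc5a2*) and SGLT1 (*Slc5a1*) of the proximal tubule take filtered glucose back from the urine, and GLUT2 (*Slc2a2*) and GLUT1 (*Slc2a1*) pass it on to the blood. Proximal tubule cells also make glucose from lactate, glutamine and glycerol through pyruvate carboxylase, PEPCK, fructose bisphosphatase and glucose-6-phosphatase, whereas the more distal segments burn glucose through hexokinase and the glycolytic enzymes.

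On both arrays, 34 of the 35 genes passed the call of the scanner software for signals well above background, in knockout and control alike. The exception was *Hk3*, a hexokinase of blood cells, which passed it on both arrays in neither genotype. Among all gene names, 19706 passed it in at least 1 genotype, on array 1 as well as array 2, and formed the comparison. In bulk kidney RNA, fewer cells of a type and less RNA per cell cannot be told apart. The share of gene spots that passed it was between 62.6% and 68.0% over the 4 channels, and precision is limited by there being 2 arrays. The probe for *Cnnm2* was lower in the knockout channel of both arrays, by log2 ratios of -2.88 and -2.46, as the genotype labels have it. Over the 19706 genes array 1 and array 2 correlated below 0 (r of -0.51 across genes, which do not count as replicates), and the SD was 0.40 for the dye contrast, which is the ratio of array 1 minus that of array 2 divided by 2, against 0.23 for the mean of both arrays. All 8 proximal tubule markers were well above background, as were the markers of the thick ascending limb, distal convoluted tubule, collecting duct and intercalated cells. *Xist* was not well above background in either genotype. The Y-linked genes *Ddx3y*, *Eif2s3y* and *Uty* were above it in both, whereas the Y-linked *Kdm5d* was above it in neither.

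Read at the brightest probe, no gene of glucose transport, glycolysis or gluconeogenesis reached a mean change of 2-fold in the knockout sample, and none reached 1.5-fold. A second, dimmer probe of *Pfkp* did pass 1.5-fold, with a mean log2 ratio of -0.97, and is described below. The highest mean ratio was that of *G6pc* (glucose-6-phosphatase, the last enzyme of glucose production) at 0.49 on the log2 scale, and the lowest was that of *Slc2a9* (GLUT9, a transporter known for urate) at -0.52. The median of the 34 genes was 0.05, with quartiles of -0.03 and 0.10, against a median of -0.01 and quartiles of -0.10 and 0.09 over all 19706 genes. The mean ratio was under 0.25 in size for 31 of the 34 genes (91.2%), against 85.3% of all genes.

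Under the rule of a mean change of at least 2-fold that has 1 direction on the 2 arrays, 0 of the 34 genes were higher and 0 were lower in the knockout sample, against a background of 0.315% of all genes higher and 0.284% lower. At 1.5-fold the counts were again 0 and 0, against 2.06% of all genes changed either way. With background shares this small, a count of 0 in a list of this length says nothing particular about it. The ratio had the same direction on both arrays for 9 of the 34 genes (26.5%), which is near the 27.7% of all genes. Of these 9, 5 were higher and 4 were lower in the knockout sample.

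**Figure D1:**
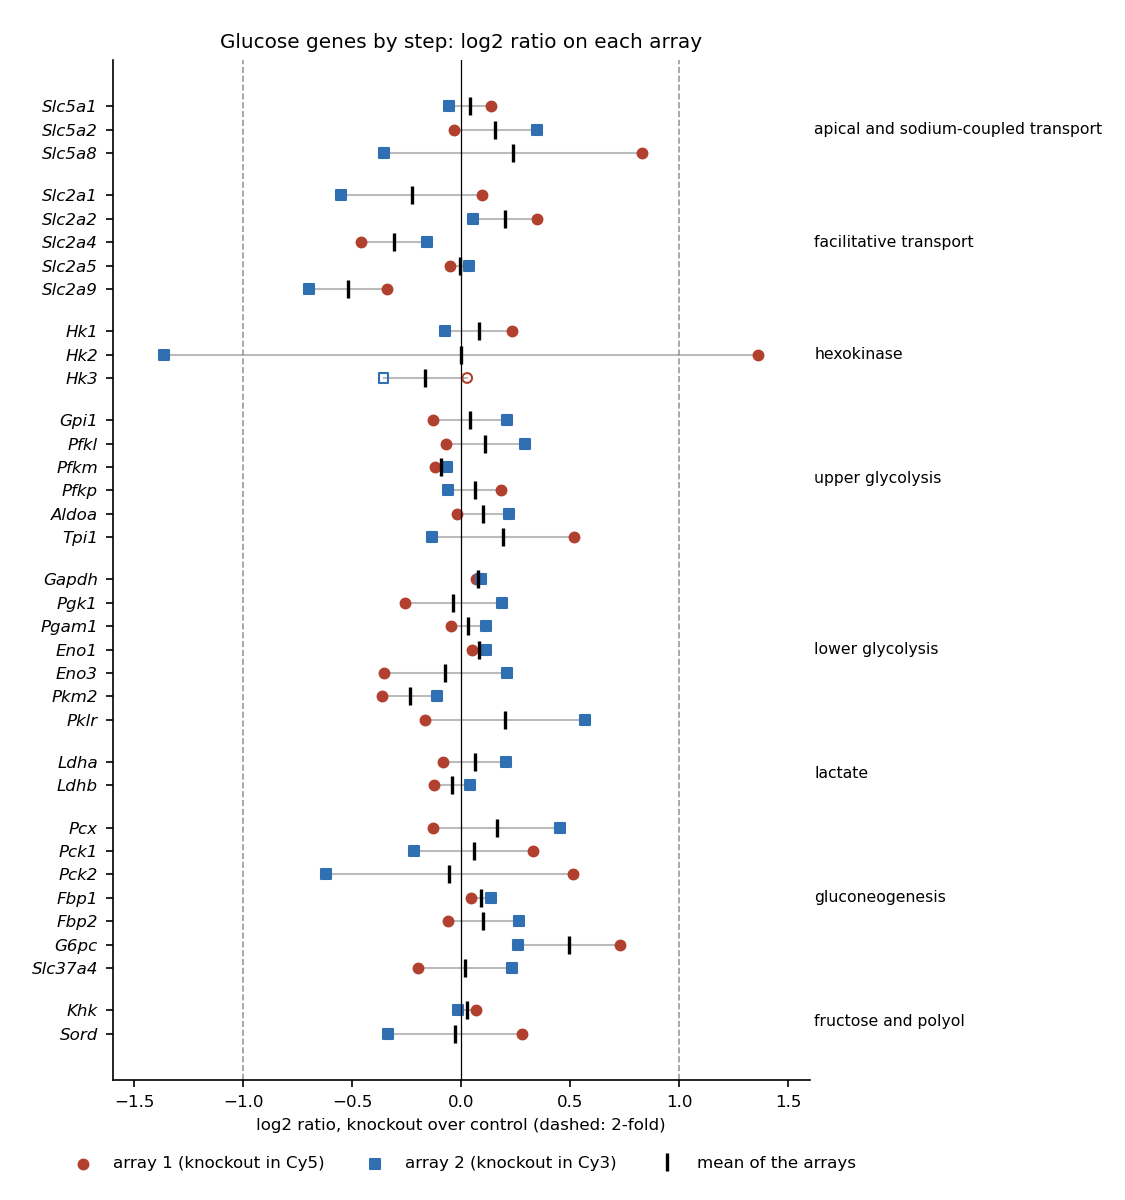
Log2 ratio of knockout over control for the 35 genes, ordered by step of the pathway, on array 1 (red circles) and array 2 (blue squares), with the mean of the arrays as a black bar and a 2-fold change as dashed lines. Open symbols mark Hk3, which was not tested, and every mean lies between -0.52 and 0.49, while Hk2 spans from -1.36 to 1.36 according to the dye.

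Probe sequences are shown before the values, because the probes of *Pfkp* disagreed in the mean ratio and those of *Ldha* in how far they followed the dye. Each line gives 30 bases of a 60-base probe, 5′ to 3′ in the sense of the mRNA, in lower case. The letters AATAAA, the usual signal for polyadenylation, are in capitals where a probe holds them. They were searched on the probe strand only, and they occur in 4965 of all 39429 gene probes (12.6%) and in 15 of the 48 probes of these genes (31.3%). A match is a description of the probe and not proof of a site in use. Positions follow the files and the mm9 build, and exons and UTRs of that build were not used here.

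The first set is *Pfkp*, whose probes disagree in value. The brighter probe lies on chromosome 13 from 6581718 to 6583872 and so bridges an intron, and the dimmer probe lies further 3′, from 6579124 to 6579183.
Pfkp, brighter probe, bases 1 to 30: caaactgaaggggtcccagggcacagggaa
Pfkp, dimmer probe, bases 29 to 58: tttttgccagtcAATAAAcacctttggttg

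The second set is *Ldha*, with probes at 3 places along the gene on chromosome 7, with mean ratios between 0.04 and 0.16, which differ in how far they follow the dye. They start at 54103010, 54107294 and 54110937, and the last is the brightest.
Ldha, most upstream probe, bases 1 to 30: gctgattgtgaatcttcttaaggaagagca
Ldha, middle probe, bases 1 to 30: cttaacccagaactgggcactgacgcagac
Ldha, brightest probe, bases 30 to 59: agtgtcatgccaAATAAAaccttgaacagt

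The third set holds the probes behind the highest and the lowest ratio, that of *G6pc* on chromosome 11 from 101238947 to 101239006 and that of *Slc2a9* on chromosome 5 from 38740566 to 38740625. Neither of these probes holds the letters AATAAA.
G6pc, bases 1 to 30: cagaaatatgactcctttccctagcccaag
Slc2a9, bases 1 to 30: ccagcaattattattgttatgttcttgtat

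Among the sodium-coupled transporters of the apical membrane, no gene had the same direction on both arrays, and the median mean ratio of the 3 genes was 0.16. *Slc5a2* (SGLT2, which takes back most of the filtered glucose) had a processed signal of 42275 (knockout) and 43220 (control) on array 1 and of 40729 (knockout) and 32043 (control) on array 2. The knockout and control signals overlapped, and the log2 ratios of array 1 and array 2 were -0.03 and 0.35, averaging 0.16 ± 0.27 (SD). *Slc5a1* (SGLT1, the high-affinity cotransporter of the later proximal tubule) had ratios of 0.14 and -0.05 and a mean of 0.04 ± 0.13 (SD). *Slc5a8*, a sodium-coupled transporter of lactate and other monocarboxylates, had signals of 5929 (knockout) and 3340 (control) on array 1 and of 3574 (knockout) and 4564 (control) on array 2. In both arrays the Cy5 channel was the brighter one, and the ratios were 0.83 and -0.35 with a mean of 0.24 ± 0.83 (SD). The *Slc5a8* probe is printed 10 times, and the SD between its spots was 0.03 on array 1 and 0.02 on array 2, so the spots of each array lay closer together than the arrays did.

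The facilitative transporters held the widest spread of any step, from -0.52 for *Slc2a9* to 0.20 for *Slc2a2*, with a median of -0.23 over 5 genes, 3 of which had the same direction on both arrays. *Slc2a9* had signals of 232 (knockout) and 293 (control) on array 1 and of 150 (knockout) and 244 (control) on array 2. Both knockout signals were below both control signals. The share of all genes separated in this way was not counted, here or for the genes below. The log2 ratios of array 1 and array 2 were -0.34 and -0.70 and averaged -0.52 ± 0.25 (SD), a 1.43-fold lower signal. With normexp background correction and loess, which damps dim probes through its offset, the mean was -0.21.

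*Slc2a4* encodes GLUT4, the insulin-responsive transporter best known from fat and muscle. Its signals were 2616 (knockout) and 3597 (control) on array 1 and 2447 (knockout) and 2728 (control) on array 2, so both knockout signals were again below both control signals. The ratios were -0.46 and -0.16, with a mean of -0.31 ± 0.21 (SD), a 1.24-fold lower signal. This probe is printed 10 times, with an SD between spots of 0.04 on array 1 and 0.02 on array 2, and the highest of its spots was at -0.37 on array 1 and at -0.13 on array 2. Of 5 adipocyte markers, 4 were well above background and *Lep* was not. Their summed signal was 6762 (knockout) and 7748 (control) on array 1 and 5067 (knockout) and 6225 (control) on array 2, and *Cfd* (adipsin), which made up most of it, had ratios of -0.23 and -0.32. *Retn* was lower on both arrays (-0.20 and -0.08), whereas *Adipoq* (0.05 and -0.33) and *Plin1* (0.16 and -0.15) changed sign with the dye. Of 6 skeletal muscle markers, 1 (*Acta1*) was well above background, with a summed signal for the list between 43.8 and 76.7. The part of either tissue in the *Slc2a4* value was not tested.

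*Slc2a2* (GLUT2, the basolateral transporter of the proximal tubule) had signals of 8337 (knockout) and 6557 (control) on array 1 and of 5915 (knockout) and 5693 (control) on array 2. The control signal of array 1 was above the knockout signal of array 2, so the genotypes overlapped. Its ratios were 0.35 and 0.06, with a mean of 0.20 ± 0.21 (SD). *Slc2a1* (GLUT1, the transporter found in most cells) had signals of 4833 and 4518 on array 1 and 3186 and 4671 on array 2. Only the knockout channel of array 2 stood apart, and the ratios of 0.10 and -0.55 gave a mean of -0.23 ± 0.46 (SD). *Slc2a5* (GLUT5, a fructose transporter) had ratios of -0.05 and 0.04 and a mean of -0.01 ± 0.06 (SD).

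**Figure D2:**
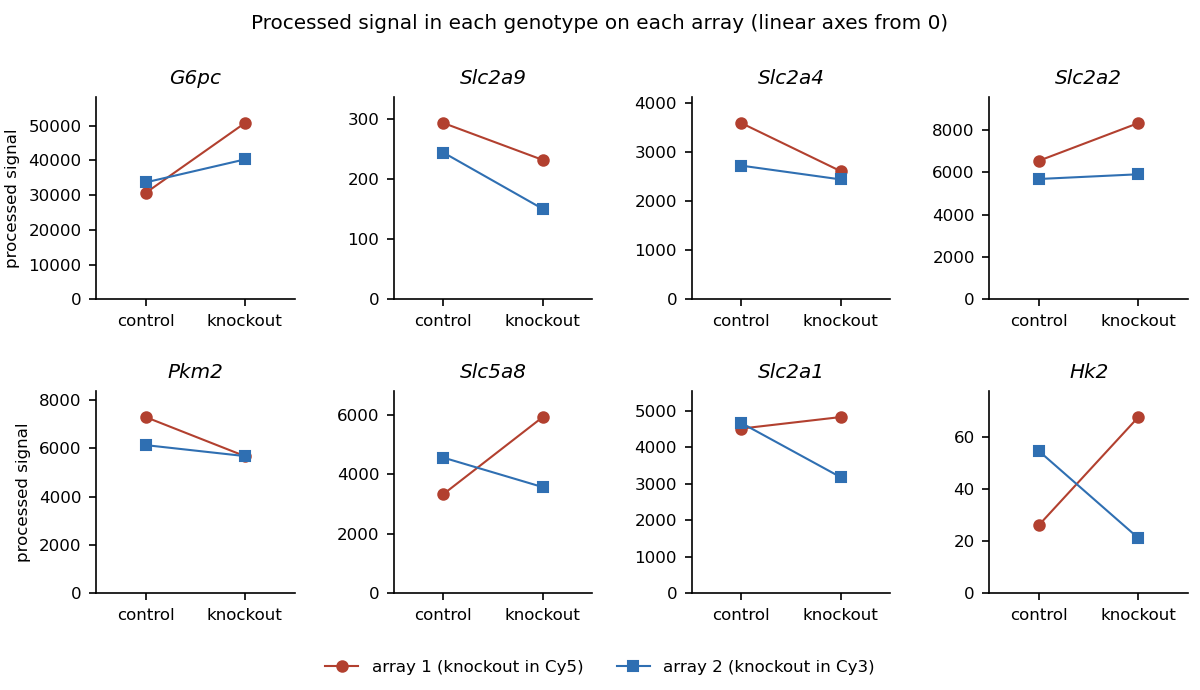
Processed signal (linear axis from 0) in the control and knockout channel of array 1 (red circles) and array 2 (blue squares) for 8 genes, with lines joining the channels of an array. For G6pc both knockout signals lie above both control signals, for Slc2a9, Slc2a4 and Pkm2 both lie below, and for Slc5a8 and Hk2 the lines cross because the Cy5 channel was brighter on each array. The share of all genes whose signals lie apart in this way was not counted.

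Hexokinases trap glucose in the cell as glucose 6-phosphate, and their ratios did not separate the genotypes. *Hk1*, the housekeeping form, had signals of 10624 (knockout) and 9026 (control) on array 1 and of 9411 (knockout) and 9899 (control) on array 2. The genotypes overlapped, with a mean ratio of 0.08 ± 0.22 (SD). *Hk2*, the form of muscle and growing cells, had the largest dye contrast of the 34 genes. Its dim signals were 67.6 (knockout) and 26.3 (control) on array 1 and 21.2 (knockout) and 54.5 (control) on array 2. The Cy5 channel was brighter on both arrays whichever genotype it carried, and the ratios of 1.36 and -1.36 gave a mean of 0.00 ± 1.93 (SD). A dye contrast of at least 1 in size was seen in 2.54% of all genes, and *Hk2* was the 1 gene of the 34 with it.

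Upper glycolysis turns glucose 6-phosphate into triose phosphates, and the 6 genes of this step had mean ratios between -0.09 and 0.19 with a median of 0.08. *Gpi1* (glucose-6-phosphate isomerase), with ratios of -0.13 and 0.21, had a mean of 0.04 ± 0.24 (SD), and the means of its 3 probes differed by at most 0.0107. Of the phosphofructokinase subunits, which set the pace of glycolysis, *Pfkl* had a mean of 0.11 ± 0.26 (SD). *Pfkm* had ratios of -0.12 and -0.07, which share a direction, with a mean of -0.09 ± 0.04 (SD). Its probe is printed 10 times, and every spot was below 0, the highest at -0.09 on array 1 and -0.04 on array 2, but the difference amounts to 1.07-fold. *Aldoa* (aldolase A) had a mean of 0.10 ± 0.17 (SD). *Tpi1* (triosephosphate isomerase) had ratios of 0.52 and -0.13 and a mean of 0.19 ± 0.46 (SD).

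The third phosphofructokinase subunit, *Pfkp*, gave 2 answers. Its brighter probe had signals of 789 (knockout) and 695 (control) on array 1 and of 668 (knockout) and 697 (control) on array 2, with ratios of 0.18 and -0.06 and a mean of 0.06 ± 0.17 (SD). The dimmer probe, the one with AATAAA above, had signals of 43.1 and 94.9 on array 1 and 21.6 and 37.6 on array 2. There the knockout channel was the dimmer one on both arrays, and the ratios of -1.14 and -0.80 gave a mean of -0.97 ± 0.24 (SD), just short of 2-fold. The knockout signal of array 1 was above the control signal of array 2, so the genotypes overlapped. The probes lie 2594 bases apart in the genome, and *Pfkp* was the only gene of those with more than 1 probe whose probes differed by over 2-fold in the mean ratio. Its values therefore count as uncertain. The share of all genes with more than 1 probe whose probes differ by as much was not counted.

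Lower glycolysis runs from glyceraldehyde 3-phosphate to pyruvate, and its 7 genes had mean ratios between -0.24 and 0.20 with a median of 0.03. *Gapdh*, often used as a reference gene, had signals of 118101 (knockout) and 112556 (control) on array 1 and of 98500 (knockout) and 92634 (control) on array 2. The ratios of 0.07 and 0.09 gave a mean of 0.08 ± 0.01 (SD), a 1.06-fold difference. *Eno1* (enolase 1) was alike, with ratios of 0.05 and 0.11 and a mean of 0.08 ± 0.05 (SD). For *Gapdh* the shared direction depended on the probe. The most 3′ probe (0.05 and -0.08) and the probe 30 bases upstream of it (0.17 and -0.08) changed sign between the arrays. The *Gapdh* probe placed on chromosome 8 did not (0.09 and 0.02). *Pgk1* (phosphoglycerate kinase), *Pgam1* (phosphoglycerate mutase) and *Eno3* (the muscle enolase) had opposite directions on the arrays, with means of -0.04, 0.03 and -0.07.

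*Pkm2* (pyruvate kinase M, named *Pkm* in RefSeq) had signals of 5677 (knockout) and 7293 (control) on array 1 and of 5679 (knockout) and 6133 (control) on array 2. Both knockout signals were below both control signals, with ratios of -0.36 and -0.11 and a mean of -0.24 ± 0.18 (SD), a 1.18-fold lower signal. *Pklr*, the pyruvate kinase of liver and of the proximal tubule, had ratios of -0.17 and 0.57 and a mean of 0.20 ± 0.52 (SD), which was 0.07 with normexp and loess. The lactate dehydrogenases, which interconvert pyruvate and lactate, had means of 0.06 ± 0.20 (SD) for *Ldha* and -0.04 ± 0.12 (SD) for *Ldhb*, with opposite directions on the arrays.

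Gluconeogenesis was the step with the highest single value, and 5 of its 7 genes changed sign between the arrays. *G6pc* had signals of 50732 (knockout) and 30632 (control) on array 1 and of 40273 (knockout) and 33655 (control) on array 2. Both knockout signals were above both control signals. The ratios of 0.73 and 0.26 averaged 0.49 ± 0.33 (SD), a 1.41-fold higher signal. The mean ranged from 0.44 to 0.49 over the settings that used both arrays, but with background-subtracted signals centred on the median the ratio of array 2 was -0.24 against 1.13 on array 1. Other bright genes also split between array 1 and array 2 in that setting, such as *Fbp1* (0.61 and -0.52) and *Gapdh* (0.62 and -0.55). *Slc37a4*, which carries glucose 6-phosphate to the same phosphatase inside the endoplasmic reticulum, had ratios of -0.20 and 0.23 and a mean of 0.02 ± 0.31 (SD). All 4 markers of the late proximal tubule were well above background, with a median ratio of 0.21 and the highest value for *Slc22a7* (ratios of 0.29 and 0.74). *Cyp7b1* was higher on both arrays as well (0.30 and 0.21), *Slc7a13* (0.83 and -0.49) and *Slc22a13* (-0.06 and 0.10) changed sign with the dye, and the 8 markers of the whole proximal tubule had a median of -0.02. The summed signal of the late markers was 100653 (knockout) and 80574 (control) on array 1 and 80209 (knockout) and 72086 (control) on array 2. Their part in the *G6pc* value was not tested.

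The earlier enzymes of glucose production did not share the size of the *G6pc* value. *Pck1* (cytosolic PEPCK, which makes phosphoenolpyruvate and is regulated by acid-base state and hormones) had signals of 57114 (knockout) and 45435 (control) on array 1 and of 41325 (knockout) and 47972 (control) on array 2. The genotypes overlapped, the Cy5 channel was brighter on both arrays, and the ratios of 0.33 and -0.22 gave a mean of 0.06 ± 0.39 (SD). *Pck2*, the mitochondrial form, was dim, with signals between 22.8 and 35.6 and ratios of 0.51 and -0.62. Its mean was -0.06 ± 0.80 (SD), with an SD between its 10 spots of 0.16 on array 1 and 0.27 on array 2. *Pcx* (pyruvate carboxylase, the entry from pyruvate) had ratios of -0.13 and 0.45 and a mean of 0.16 ± 0.41 (SD). *Fbp1* (fructose bisphosphatase of liver and kidney) was higher in the knockout channel of both arrays, with ratios of 0.05 and 0.14 and a mean of 0.09 ± 0.06 (SD), and *Fbp2*, the muscle form, had ratios of -0.06 and 0.26 and a mean of 0.10 ± 0.23 (SD).

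Fructose and sorbitol enter below hexokinase. *Khk* (ketohexokinase) had ratios of 0.07 and -0.01 and a mean of 0.03 ± 0.06 (SD). *Sord*, which oxidizes sorbitol to fructose, had signals of 71834 (knockout) and 59206 (control) on array 1 and of 47286 (knockout) and 59632 (control) on array 2. The Cy5 channel was brighter on both arrays, and the ratios of 0.28 and -0.33 gave a mean of -0.03 ± 0.43 (SD).

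For 25 of the 34 genes, then, the ratio changed sign with the dye. The Cy5 channel was the brighter one on both arrays for 11 of them and the Cy3 channel for 14. Of the 9 genes with the same direction on both arrays, 4 (*Gapdh*, *Eno1*, *Fbp1* and *Pfkm*) had means under 0.10 in size. When the direction had to hold under all 9 settings that used both arrays, 3 genes (*Slc2a9*, *Slc2a4* and *Pkm2*, all lower in the knockout sample) were left, or 8.82% of 34, against 10.7% of all genes. Each of these 3 genes has 1 probe, with no marked spot and signal well above background. For them, only the other background corrections and normalizations could move the ratio, and the remaining settings repeat the main value. *G6pc*, *Slc2a2*, *Eno1*, *Fbp1* and *Pfkm* fell out only with the background-subtracted signals, which were centred on the median without loess. The rule therefore does not show that the 3 genes left are more stable than these.

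**Figure D3:**
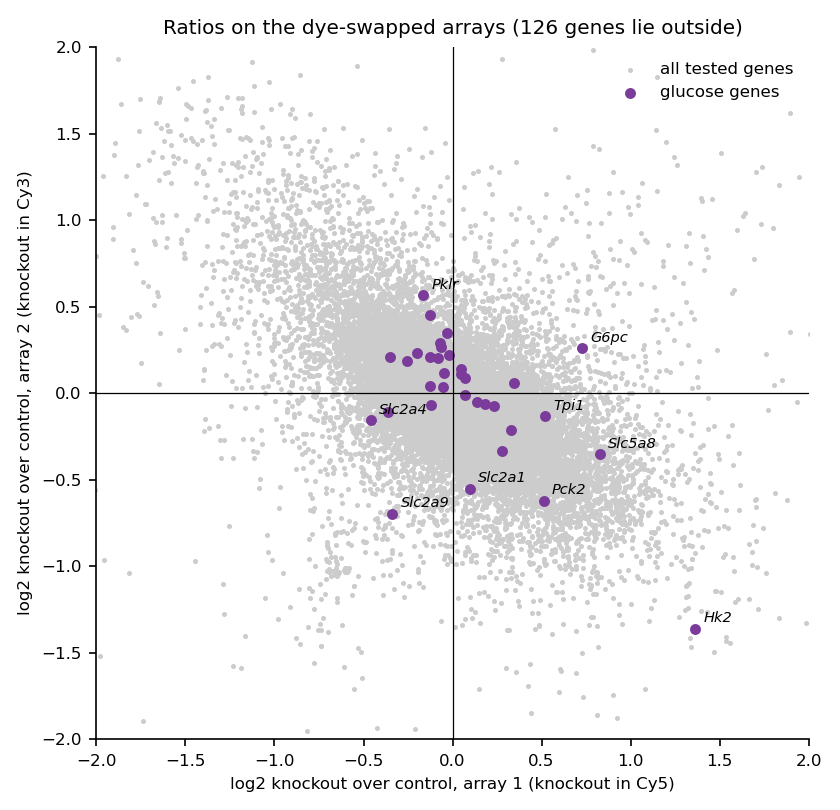
Log2 ratio of knockout over control on array 1 (knockout in Cy5) against array 2 (knockout in Cy3) for all tested genes (grey) and the glucose genes (purple), with axes limited to 2 in size and 126 genes outside. Most glucose genes lie at the upper left and lower right, where the direction follows the dye, with Hk2 farthest out, and G6pc and Slc2a9 lie at the upper right and lower left, where both arrays have the same direction.

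Probes of the same gene showed how the dye contrast varied along a transcript. For labelling, the RNA was copied from an oligo-dT primer, so the copies start at the 3′ end. The most upstream *Ldha* probe above had ratios of -1.05 on array 1 and 1.36 on array 2, the middle probe -0.63 and 0.71, and the 3′ probe -0.08 and 0.20. The Cy3 channel was the brighter one at all 3 places, by less towards the 3′ end, while the means of 0.16, 0.04 and 0.06 stayed small. *Gapdh* has 7 probes, 1 of which the files place on chromosome 8 and the others on chromosome 6, so signal from near-identical copies cannot be told apart. Its 3 upstream probes, 1131 to 1464 bases from the most 3′ probe, had ratios between -0.76 and -0.27 on array 1 and between 0.53 and 1.16 on array 2, while the means of all 7 lay between -0.02 and 0.22. The upstream probe of *Hk1*, 861 bases away, had ratios of -0.84 and 0.97, against 0.24 and -0.07 for its brightest probe. *Tpi1* was similar, with -0.21 and 0.81 for the probe 976 bases upstream against 0.52 and -0.13, and both of its means were above 0, at 0.30 and 0.19. Distances are in the genome and include introns.

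**Figure D4:**
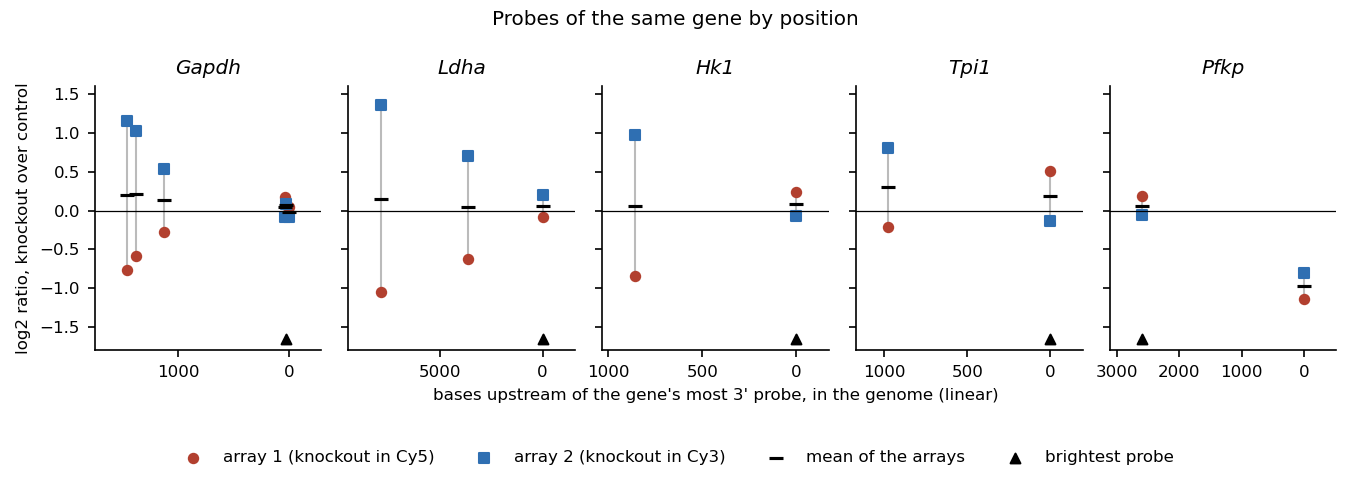
Log2 ratio of knockout over control on array 1 (red circles) and array 2 (blue squares), with the mean as a black dash, for the probes of Gapdh (without the probe on chromosome 8), Ldha, Hk1, Tpi1 and Pfkp, against the distance in bases upstream of the gene's most 3′ probe. In the first 4 genes the arrays spread apart at upstream probes around means between 0.04 and 0.30, and in Pfkp both arrays lie below 0 (-1.14 and -0.80) at the dim 3′ probe, which is not the brightest (triangle).

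The other genes around the pathway were read from 7 further lists, of which 115 genes were tested. By the 2-fold rule 1 was higher and 0 were lower in the knockout sample, against 0.315% and 0.284% of all genes. The ratios of 32 (27.8%) kept their sign from array 1 to array 2, again near the 27.7% of all genes. The gene counted was *Akr1b3*, aldose reductase, which makes the sorbitol that *Sord* breaks down. The paper lists this gene among those changed on the same arrays, and the further lists were chosen with earlier results known. The count of 1 was therefore not independent of those results. The ratios of *Akr1b3* were 1.40 and 1.13, with a mean of 1.26, a 2.40-fold higher signal. In the list of pentose phosphate and polyol genes it belongs to, the median of 14 genes was 0.00 and the lowest value was that of *Akr1b7*, an aldo-keto reductase, at -0.52 (ratios of -0.15 and -0.88).

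Among 18 other isoenzymes tested, the median was 0.05, the highest gene was *Hkdc1* (a hexokinase relative) at 0.36 and the lowest was *Pgam2* (the muscle phosphoglycerate mutase) at -0.48, with ratios of -0.40 and -0.56. Among 11 other sugar transporters the median was -0.09. The highest was *Slc2a6* (GLUT6) at 0.58, with ratios of 0.50 and 0.66. Its signals were dim, at 52.7 (knockout) and 37.2 (control) on array 1 and 57.1 (knockout) and 36.2 (control) on array 2. The lowest was *Slc2a12* (GLUT12) at -0.21, with ratios of -1.19 and 0.77 that follow the dye. Among 19 genes of pyruvate and lactate handling the median was 0.01, with *Pdk4* (a kinase that turns off pyruvate dehydrogenase) highest at 0.29 and *Slc16a7* (the monocarboxylate transporter MCT2) lowest at -0.54, from ratios of -0.38 and -0.70.

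The 17 glycogen genes tested had a median of 0.01, with *Gbe1* (the branching enzyme) highest at 0.17. The 12 genes that feed amino acids, malate and glycerol into glucose production had a median of 0.08, between *Got1* (cytosolic aspartate aminotransferase) at -0.10 and *Gyk* (glycerol kinase) at 0.29. The 24 regulators had a median of -0.06. *Hif1a*, the hypoxia factor that raises glycolytic genes, was highest at 0.34 but had ratios of 0.88 and -0.20. *Ppargc1a*, a coactivator known to raise *Pck1* and *G6pc*, was lowest at -0.40, with a ratio of -0.40 on each array.

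**Figure D5:**
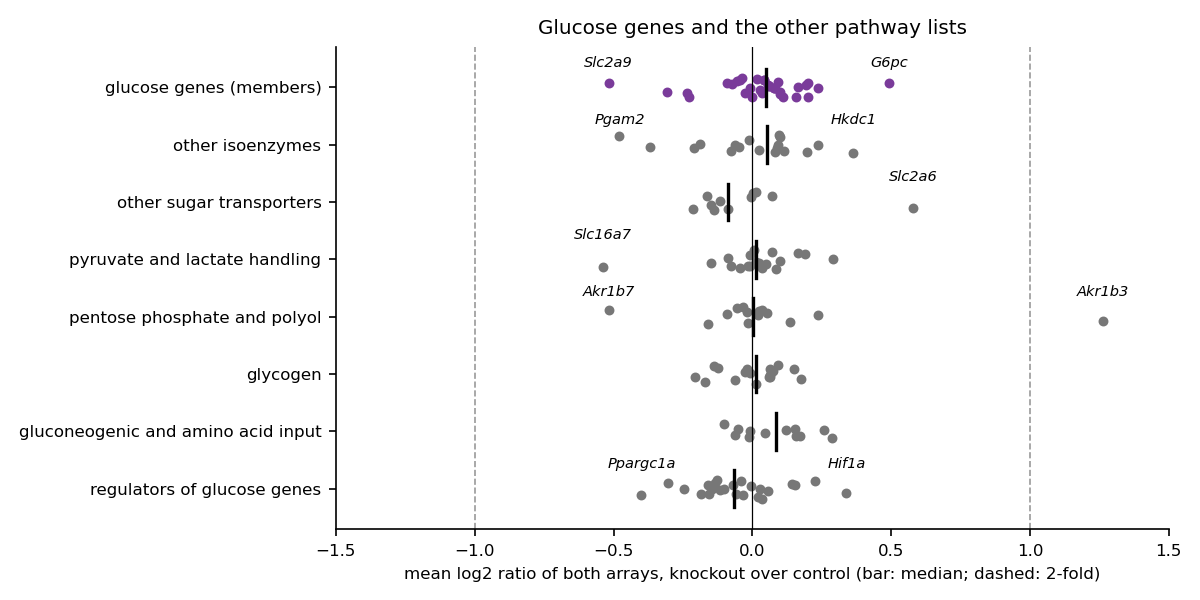
Mean log2 ratio of both arrays for the tested glucose genes (purple) and the genes of the 7 other lists (grey), 1 point per gene with random vertical spread, with the list median as a black bar and a 2-fold change as dashed lines. The medians lie between -0.09 and 0.08, and Akr1b3 at 1.26 is the only point past 2-fold.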

How the data were processed

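Kidney RNA of both genotypes was measured on 2 dye-swapped arrays. The authors deposited spot intensities from Agilent Feature Extraction (10.7.3.1 in the file headers, 10.5.1.1 in the submitters' processing notes), and its processed signals are corrected for background and dye within each array. The deposited value table holds log10 ratios of knockout over control, which were within 0.005 of those in the scanner files. Control spots and spots marked as outliers (141 on array 1 and 175 on array 2, none of them for a gene of the list) were left out, the spots of a probe were averaged, and log2 ratios were turned to knockout over control by the dye labels. The 35 gene names matched RefSeq (GRCm38) through their accessions, 1 under a newer name. The genes named are all genes of the list and, of each further list, the highest, the lowest and any counted as changed (1 of these is not reported here); the list and the further lists were chosen with earlier results of these data known. Alternatives were normexp (offset of 50) or no background correction with loess, background-subtracted signals (floor of 1, median centred), the deposited ratios, 2 other limits on dim probes, marked spots kept, the median over probes, each array alone, other fold rules, the methods' paired test and limma 3.58.1. On simulated data of 19706 genes the 2-fold rule recovered 97 of 100 genes changed by 1.5 on the log2 scale and 0 of 100 changed by 0.5, and limma recovered 0 of 100 of either size under dye effects as large as here. The simulated dye effects were opposite on the 2 arrays and cancelled in the mean. The remaining noise was smaller than the SD of 0.23 of the real mean ratio, and mice did not differ. A change of 0.5 lies under the 2-fold limit, so the counts of the 2-fold rule followed largely from these settings. Python 3.11.15 and R 4.3.3 were used.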

Additional observations from a re-analysis of the deposited data

How the results depend on the processing

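The counts of 0 higher and 0 lower genes held under every background correction, normalization, limit on dim probes and probe rule tried, and at 1.5-fold and at 2-fold on each array. The limits on dim probes and the marked spots could not change the values of the 34 genes. The deposited ratios are those of the scanner files, and the median over probes could change only the 6 genes with more than 1 probe. The methods' paired test and limma were run as alternatives that treat the arrays as replicates. After adjustment both counted 0 of all 19706 genes, and in simulated data limma recovered none of the changed genes, so their counts of 0 among the 34 say nothing about stability. At an unadjusted p under 0.05 and with no fold limit, limma counted 124 higher and 132 lower genes over all and 0 among the 34. The methods' test before adjustment, at a p under 0.1 with a mean fold above 2, counted 22 and 14 over all and 0 among the 34. With 1 array alone 0 to 1 gene was higher and 0 to 1 was lower, in each case *Hk2*, and the median ratio was between -0.0257 and 0.0472. Over all 19706 genes, array 1 alone counted 385 higher and 472 lower, and array 2 alone 431 and 269. The 2-fold rule applied to the dye contrast, chosen after seeing the data, counted 1 gene (*Hk2*), and over all genes 155 and 345. Over all genes, 62 were counted as higher and 56 as lower, against 7 and 8 with normexp and loess and 12 and 12 with loess alone, and the cause was not tested. The count with the same direction on both arrays ranged from 6 to 13 of 34, while the share of all genes ranged from 24.1% to 27.7%. The 6 came with background-subtracted signals (24.1% of all genes) and the 13 with normexp and loess (27.6%). Under all settings that used both arrays, 28 of 34 genes kept the sign of their mean. The share of all genes that did so was not counted. No paired analysis was possible because each genotype counts as 1 replicate, and the methods' test pairs the dye-swapped arrays, not mice. Differences between mice, the spread of which these arrays do not hold, limit every value. Signal over background also limits those of *Hk2*, *Hk3*, *Pck2*, *Pklr*, *Slc2a9*, *Slc2a6* and the dimmer *Pfkp* probe.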

Other observations

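Probe position was also read over all genes on the arrays. Among 3158 genes with probes at least 200 and at most 100000 bases apart and well above background in both genotypes, the upstream probe had the lower dye contrast in 2043 (64.7%), with a median of -0.10 against 0.06 at the 3′ probe. The mean ratio of knockout over control moved with position too. It was lower at the upstream probe in 1080 genes (34.2%), with a median of 0.04 at upstream and -0.01 at 3′ probes. These counts were made after seeing the probes of *Ldha* and *Gapdh*, and their cause was not tested.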
